A study of Ovis aries with 8 samples.

Results

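The genes described here encode the molecular chaperones of the cytosol and of the mitochondria, with their co-chaperones and the transcription factors that control them. They were chosen from a list of 40 gene symbols, matched to the symbol of each row in a table of read counts. Of the 40 symbols, 39 had a row of their own among 33609 genes, and all 39 had enough reads to be tested beside 18193 genes in all. The symbol HSPE1, the mitochondrial co-chaperonin, had no row and is not analysed here.

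RNA was sequenced from the mediobasal hypothalamus, the block at the base of the brain that holds the arcuate nucleus, of adult Ile-de-France ewes that were either food-restricted or well fed (ad libitum). Each group held 60 ewes, 30 in each of 2 consecutive years, and the RNA of 15 ewes at a time was mixed at random into 4 sequencing pools per group. Every n below counts pools, so the spread is that between mixes of 15 ewes and not between ewes. The degree and length of the food restriction and the year of each pool are unknown from the sources used here, and whether an ewe entered more than 1 pool is not stated.

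Chaperones bind proteins that are unfolded or only partly folded and keep them from clumping. HSP70 proteins bind short exposed stretches with the help of HSP40 proteins, which deliver clients and start ATP hydrolysis, and of nucleotide exchange factors, which release them. HSP90 then takes over signalling proteins such as the glucocorticoid receptor, and the CCT ring folds actin and tubulin. The heat shock factor HSF1 switches on the inducible members of these families under protein stress, and neurons are known to hold high levels of the constitutive ones.

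Total counts were between 41261774 and 42964514 in food-restricted pools and between 36192025 and 48125991 in well-fed pools. Levels are given as CPM, the reads of a gene scaled so that libraries of different depth can be compared. They are not corrected for gene length, so levels are compared between pools for a gene and not between genes. The 6 neuronal, 6 astrocyte, 7 oligodendrocyte and 7 arcuate and ventromedial markers checked all had enough reads to be tested, and pituitary markers were present too (978 to 1651 CPM in food-restricted pools, against 971 to 1705 CPM in well-fed pools, summed over 5). Of the markers checked, only AGRP and NPY, of the arcuate nucleus, separated the groups, both higher in food-restricted pools. Summed over the tested markers of a cell type, the ranges of both groups overlapped in each of 11 lists, for instance 2312 to 2720 CPM in food-restricted pools, against 2364 to 2652 CPM in well-fed pools for 6 neuronal markers, and 3970 to 5476 CPM in food-restricted pools, against 3852 to 5454 CPM in well-fed pools for 7 oligodendrocyte markers. The largest pattern in the data lay across the groups: the first principal component, with 34.7% of the variance, set food-restricted pools 1 and 2 and well-fed pools 3 and 4 on one side and food-restricted pools 3 and 4 and well-fed pools 1 and 2 on the other. What these sets of pools share is not stated in the labels, and values within each set are given below where they bear on a gene.

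The chaperone genes lay mostly lower in the food-restricted pools, by small amounts. Of the 39 tested, 30 had a log2 fold change below 0 and 9 above it, with a median of -0.09, where 47.1% of all tested genes were below 0 and their median was 0.01. The members' median was -0.17 without food-restricted pool 3 and -0.05 without well-fed pool 2, and that of all genes stayed within 0.03 of 0 with a pool left out. No member passed the test across all genes (edgeR quasi-likelihood test, Benjamini-Hochberg adjusted p below 0.05), and over all genes 0% were called lower and 0.00550%, a single gene (AGRP), higher. HSPA6 had an edgeR adjusted p of 0.34 and each of the other 38 members one of 1. At an unadjusted edgeR p under 0.05, 6 of the 39 members were lower, against 1.03% of all tested genes, and 0 were higher, against 0.671%. No food-restricted pool reached the lowest well-fed pool in 4 members (HSPA6, DNAJB1, DNAJA1 and HSPB8), against 1.10% of all tested genes. The food-restricted pools lay wholly above in 0 members, against 0.495%. The members were listed with earlier results of these data known, so these shares describe the list and do not test it. In bulk tissue, fewer cells of a type and less RNA per cell cannot be told apart.

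**Figure D1:**
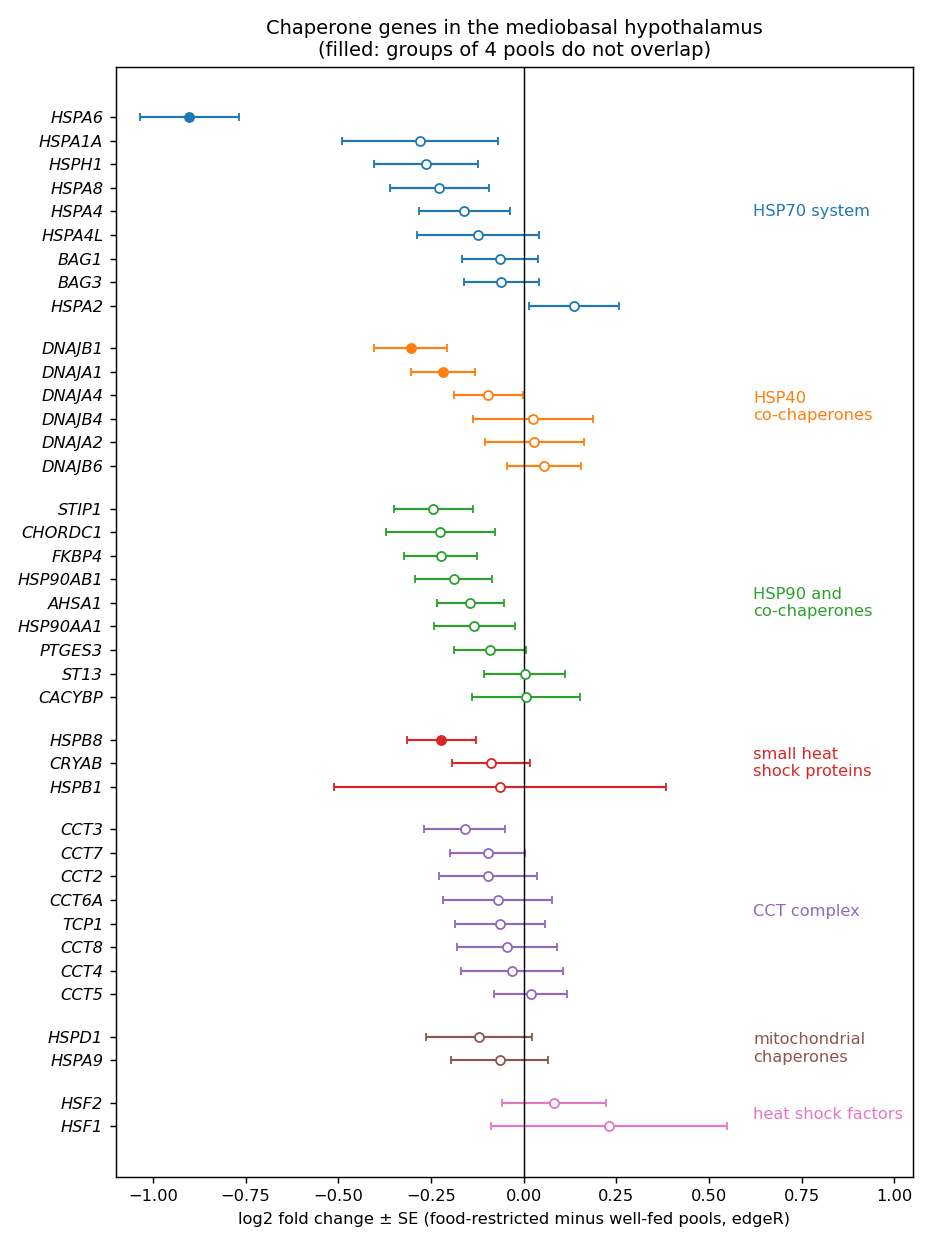
Log2 fold change (food-restricted minus well-fed pools, edgeR, horizontal axis) with its SE for the 39 tested chaperone genes, ordered by role down the page; filled points mark genes whose groups of 4 pools do not overlap. HSPA6, at -0.90, stands far left of the others, which lie between -0.30 and 0.23.

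The HSP70 system held the member with the largest difference. HSPA6 (gene ID 101107064) encodes an HSP70 that in human cells is nearly silent until heat or other protein stress induces it. It was at 10.4, 9.22, 9.85 and 8.85 CPM in food-restricted pools 1 to 4, against 18.2, 19.6, 17.5 and 16.3 CPM in well-fed pools 1 to 4. Every food-restricted pool thus lay well below every well-fed pool, and the gap between the groups was wider than the range within either. The means were 9.58 ± 0.684 CPM in food-restricted pools, against 17.9 ± 1.37 CPM in well-fed pools (SD, n = 4 each). In the fit the food-restricted level was 0.535 times the well-fed one (log2 -0.90, SE 0.13). These values rest on 373 to 444 reads per food-restricted pool and 579 to 839 reads per well-fed pool. By unadjusted edgeR p (3.74e-05) HSPA6 ranked 2 among the 18193 genes, and it did not pass after adjustment (edgeR adjusted p = 0.34). Exact permutation of the pools (two-sided, log2 CPM) gave p = 0.0286, the smallest that 4 pools against 4 allow.

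HSPA6 did pass in 3 other fits, each of which called few genes lower. DESeq2 gave an adjusted p of 2.62e-05 and called 0.0165% of all genes lower, with HSPA6 the 1 member among them. With a block for the 2 sets of pools described above, the edgeR adjusted p was 0.0294, and 0.0220% of genes were called lower. With 1 surrogate variable it was 0.0198, and 0.0275% of genes were called lower. The sets of pools and the surrogate variable were both drawn from these same counts, so those calls are no separate support. The call was absent with limma voom (adjusted p = 0.371) and in all 8 edgeR fits that left out a pool (adjusted p between 0.747 and 1), in which the log2 fold change stayed between -0.94 and -0.85. Within the sets of pools the log2 difference was -0.78 (food-restricted 1 and 2 against well-fed 3 and 4) and -1.01 (food-restricted 3 and 4 against well-fed 1 and 2).

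HSPA1A (gene ID 100913152), the main stress-inducible HSP70, was at 46.2, 56.1, 34.7 and 37.2 CPM in food-restricted pools 1 to 4, against 41.2, 40.5, 65.4 and 64.4 CPM in well-fed pools 1 to 4. The groups overlapped, since food-restricted pools 1 and 2 and well-fed pools 3 and 4 were the high pools of their groups. The log2 fold change was -0.28 (SE 0.21), and within each set of pools both food-restricted values lay below both well-fed values (log2 differences of -0.35 and -0.18). HSPA8 (gene ID 101112844), the constitutive HSP70 of neurons and other cells, was at 1053, 1201, 1409 and 1335 CPM in food-restricted pools 1 to 4, against 1776, 1528, 1298 and 1249.7 CPM in well-fed pools 1 to 4. Here the sets of pools stood the other way round, with well-fed pools 3 and 4 the lower ones of their group, and the log2 fold change was -0.23 (SE 0.13). HSPA8 too had no overlap within either set (-0.18 and -0.26). The HSP70 genes are alike in sequence, and how reads shared by several genes were counted is unknown from the sources used here. Their separate counts are therefore uncertain, also because HSPA1A and HSPA1L overlap in the RefSeq table of a sheep assembly.

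Among the nucleotide exchange factors, HSPH1 (HSP110) was at 369.9, 339.7, 462.7 and 369.2 CPM in food-restricted pools 1 to 4, against 532, 519.7, 373 and 426 CPM in well-fed pools 1 to 4. Its groups overlapped at food-restricted pool 3, and its log2 fold change was -0.26 (SE 0.14). Its relative HSPA4 averaged 247 ± 33.5 CPM in food-restricted pools, against 276 ± 30.2 CPM in well-fed pools (-0.16, SE 0.12). For HSPA4L the means were 66.2 ± 14.8 CPM in food-restricted pools, against 72.1 ± 8.52 CPM in well-fed pools (-0.12, SE 0.16). The BAG proteins, which also release clients from HSP70, were nearer to 0. BAG3, which works with HSPB8 in the autophagy of misfolded proteins, had 75.3 ± 3.09 CPM in food-restricted pools, against 78.6 ± 6.27 CPM in well-fed pools (-0.06, SE 0.10). BAG1 was at -0.06 (SE 0.10) as well. HSPA2, an HSP70 best known from male germ cells, was the 1 of 9 members of the system with a positive value (0.14, SE 0.12), and its groups overlapped.

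The HSP40 proteins had no common direction. Of 6, 3 were lower and 3 higher, with a median log2 fold change of -0.04. Of the 6, 2 were lower with groups that did not overlap, against 1.10% of all tested genes. DNAJB1 (gene ID 101122104), the main inducible HSP40 and partner of HSPA1A, was at 117.4, 117.6, 106.0 and 106.4 CPM in food-restricted pools 1 to 4, against 142, 124, 147 and 139 CPM in well-fed pools 1 to 4. The highest food-restricted pool, number 2, was below the lowest well-fed pool, also number 2. The fold was 0.809 (log2 -0.30, SE 0.10), with an unadjusted edgeR p of 0.0111, and the log2 differences were alike within the sets of pools (-0.29 and -0.32). DNAJA1 (gene ID 106990091), a farnesylated HSP40 of the cytosol, was at 176, 183, 189 and 192 CPM in food-restricted pools 1 to 4, against 209.6, 212, 225 and 215 CPM in well-fed pools 1 to 4. The groups did not overlap and each was narrow, and the fold was 0.859 (log2 -0.22, SE 0.09). The exact two-sided permutation p of DNAJB1 and of DNAJA1 was 0.0286 each, which follows from the lack of overlap and adds nothing to it. DNAJA1 overlaps SMU1 in the RefSeq table, so its count may share reads with that gene.

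The other HSP40 genes overlapped between the groups. DNAJA4 was at 119, 128, 115 and 113 CPM in food-restricted pools 1 to 4, against 135, 126, 123 and 124 CPM in well-fed pools 1 to 4 (-0.09, SE 0.09). It was food-restricted pool 2 that reached into the well-fed range. DNAJB6, which suppresses the aggregation of polyglutamine proteins, was at 192, 193, 181 and 165 CPM in food-restricted pools 1 to 4, against 162, 187, 167 and 189 CPM in well-fed pools 1 to 4 (0.05, SE 0.10). Its ranges were nearly the same in both groups. DNAJA2 (0.03, SE 0.13) and DNAJB4 (0.02, SE 0.16) both had their highest value in food-restricted pool 3, and their lowest was in well-fed pool 3 for DNAJA2 and in food-restricted pool 2 for DNAJB4.

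**Figure D2:**
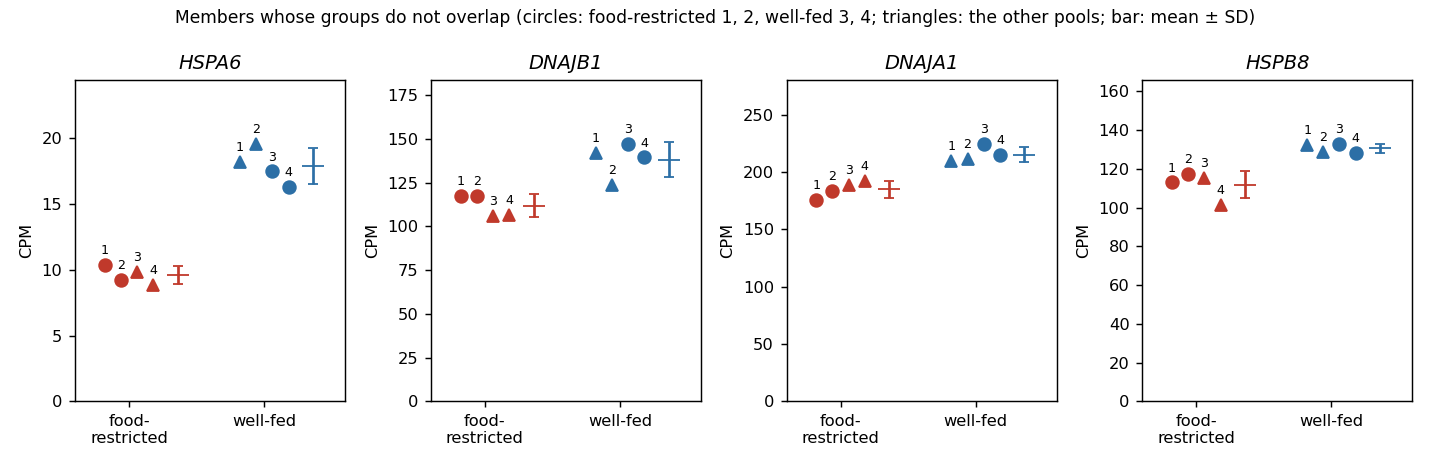
CPM (vertical axis, from 0) of HSPA6, DNAJB1, DNAJA1 and HSPB8 in each pool, food-restricted left and well-fed right, with pool numbers and mean ± SD. The groups are apart in each panel, with the food-restricted pools below, and the step is largest for HSPA6 (9.58 against 17.9 CPM on average).

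HSP90 and its co-chaperones lay lower in 7 of 9 members, with a median log2 fold change of -0.14, and in none were the groups apart. HSP90AA1 (gene ID 100127209), the inducible HSP90, was at 2453, 2419, 2965 and 2678 CPM in food-restricted pools 1 to 4, against 3327, 3043, 2598 and 2566 CPM in well-fed pools 1 to 4. Within each set of pools both food-restricted values were the lower ones (log2 differences of -0.08 and -0.17), while over all pools the log2 fold change was -0.13 (SE 0.11). HSP90AB1 (gene ID 101117797), the constitutive HSP90, was at 1425, 1604, 1613 and 1692 CPM in food-restricted pools 1 to 4, against 2061, 1918, 1600.1 and 1643 CPM in well-fed pools 1 to 4. Well-fed pools 1 and 2 stood above all others, and the log2 fold change was -0.19 (SE 0.10).

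STIP1 and FKBP4 had the smallest p of this group. STIP1 (HOP), which links HSP70 to HSP90, was at 246, 313, 257 and 273 CPM in food-restricted pools 1 to 4, against 352, 334, 309 and 294 CPM in well-fed pools 1 to 4. Only food-restricted pool 2 entered the well-fed range, and the log2 fold change was -0.24 (SE 0.11, unadjusted edgeR p = 0.0442; exact permutation p = 0.0857). FKBP4 (FKBP52), an immunophilin that binds HSP90 in steroid receptor complexes, was at 306.5, 353.5, 327 and 303 CPM in food-restricted pools 1 to 4, against 397, 412, 340.2 and 358 CPM in well-fed pools 1 to 4. Its pools overlapped in the same way, through food-restricted pool 2 and well-fed pool 3 (-0.22, SE 0.10, unadjusted edgeR p = 0.0465; exact permutation p = 0.0571). In both genes the difference was larger between food-restricted 3 and 4 and well-fed 1 and 2 (-0.37 for STIP1, -0.36 for FKBP4) than between food-restricted 1 and 2 and well-fed 3 and 4 (-0.12 and -0.08), a contrast that was not tested.

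AHSA1, which speeds the ATPase of HSP90, was at 214, 211, 225 and 204 CPM in food-restricted pools 1 to 4, against 219.6, 243, 229 and 252 CPM in well-fed pools 1 to 4 (-0.14, SE 0.09). Food-restricted pool 3 lay within the well-fed range. CHORDC1 (morgana), an HSP90-binding protein, averaged 104 ± 17.4 CPM in food-restricted pools, against 122 ± 17.4 CPM in well-fed pools (-0.22, SE 0.15). PTGES3 (p23), which holds HSP90 in its closed form, was at -0.09 (SE 0.10). ST13 (HIP), which steadies HSP70, and CACYBP, the calcyclin-binding protein, were the 2 with a positive value, at 0.00 (SE 0.11) and 0.01 (SE 0.15), and both turned negative with upper-quartile scaling.

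**Figure D3:**
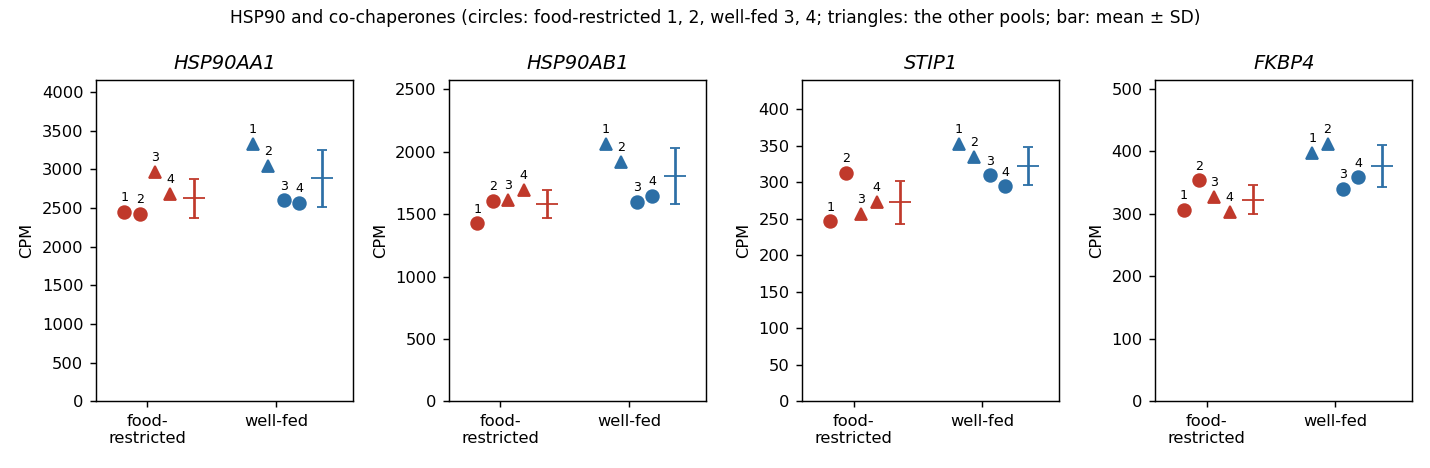
CPM (vertical axis, from 0) of HSP90AA1, HSP90AB1, STIP1 and FKBP4 in each pool, food-restricted left and well-fed right, with pool numbers and mean ± SD. The groups overlap in every panel, and well-fed pools 1 and 2 are the highest of all 8.

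The 3 small heat shock proteins, which hold unfolded clients without ATP, behaved differently from each other. HSPB8 (gene ID 101108164), the partner of BAG3, was at 113, 118, 115 and 102 CPM in food-restricted pools 1 to 4, against 133, 129, 133 and 128 CPM in well-fed pools 1 to 4. The groups did not overlap, the well-fed pools were within a few CPM of each other, and the fold was 0.857 (log2 -0.22, SE 0.09, unadjusted edgeR p = 0.0363; exact two-sided permutation p = 0.0286). CRYAB (alpha B-crystallin), which is abundant in glia, was at 354, 272, 336 and 295 CPM in food-restricted pools 1 to 4, against 337, 354, 317 and 327 CPM in well-fed pools 1 to 4 (-0.09, SE 0.10). Food-restricted pools 2 and 4 lay below the well-fed range and the other two within it.

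HSPB1 (HSP27; gene ID 101115754) had the largest SE of the log2 fold change among the 39 members and a fold change near 0. It was at 412, 427, 134 and 171 CPM in food-restricted pools 1 to 4, against 145, 181, 396 and 474 CPM in well-fed pools 1 to 4. Food-restricted pools 1 and 2 and well-fed pools 3 and 4 were thus at 396 CPM or more, and the other 4 pools at 181 CPM or less, 2.72 times apart by mean log2 CPM. The means were 286 ± 155 CPM in food-restricted pools, against 299 ± 161 CPM in well-fed pools, and the log2 fold change of -0.06 had an SE of 0.45. Within the sets of pools HSPB1 differed by -0.05 and -0.10 with feeding.

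The same division of pools appeared in other members. HSF1 (gene ID 101109368), the factor that induces heat shock genes, was at 62.5, 72.7, 28.4 and 46.0 CPM in food-restricted pools 1 to 4, against 31.0, 29.0, 61.4 and 57.3 CPM in well-fed pools 1 to 4. Food-restricted pools 1 and 2 and well-fed pools 3 and 4 again stood above all others, 1.92 times the rest. The log2 fold change with feeding was 0.23 (SE 0.32) and stayed positive within both sets (0.18 and 0.27). HSF2, a related factor, ran the opposite way across the sets, at 43.3, 39.5, 55.3 and 47.3 CPM in food-restricted pools 1 to 4, against 49.9, 46.0, 37.4 and 41.9 CPM in well-fed pools 1 to 4 (0.08, SE 0.14). In all, 4 members (HSPB1, HSF1, HSPA1A and CCT5) were higher without overlap in food-restricted 1 and 2 and well-fed 3 and 4, against 14.2% of all tested genes, and 7 (HSPA8, HSPA4L, HSP90AA1, CCT2, HSPA9, HSPD1 and HSF2) were lower there, against 8.93%. These members helped to set the component, so this is a description with no test. Marker sums of neurons overlapped between the sets (2312 to 2484 and 2395 to 2720 CPM), as did those of oligodendrocytes (4318 to 5476 and 3852 to 4585 CPM), with 1 of 6 and 2 of 7 markers higher without overlap in food-restricted 1 and 2 and well-fed 3 and 4. The 7 arcuate and ventromedial markers summed to 554 to 776 CPM there and 256 to 537 CPM in the other pools, without overlap. Taken singly, only 2 of these 7 were higher there without overlap, and 0 were lower. Of 6 astrocyte markers, 2 were lower there without overlap and 0 higher. The part of these cell types in the split was not tested.

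**Figure D4:**
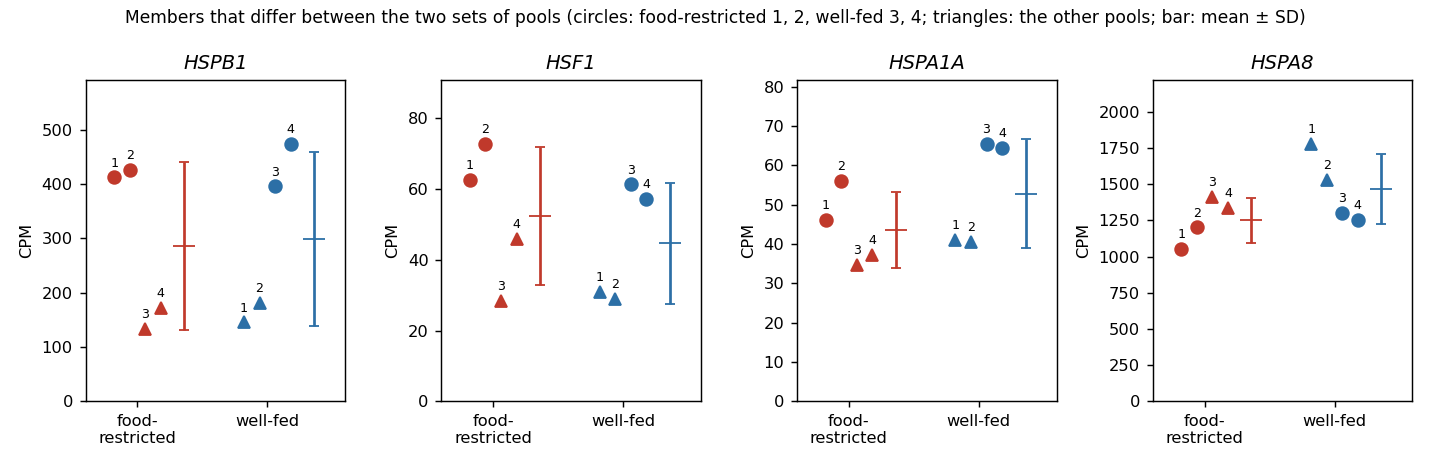
CPM (vertical axis, from 0) of HSPB1, HSF1, HSPA1A and HSPA8 in each pool, food-restricted left and well-fed right, with pool numbers and mean ± SD; circles are food-restricted 1 and 2 and well-fed 3 and 4, triangles the other pools. Circles lie above triangles for HSPB1, HSF1 and HSPA1A and below them for HSPA8, in both groups.

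Set against the split, the direction with feeding was shared by both sets of pools for most members. Of the 39, 26 were lower in the food-restricted pools within both sets, against 26.7% of all tested genes. Within both sets and without overlap, 9 members were lower (HSPA1A, HSPA6, HSPA8, HSPH1, DNAJA1, DNAJB1, HSP90AA1, HSPB8 and CCT3), against 2.76% of all tested genes, and 0 were higher, against 2.52%. HSPA6, DNAJA1, DNAJB1 and HSPB8 had no overlap over the whole series, so they were bound to be among the 9. Both HSP90AA1 and the HSP70 genes HSPA1A and HSPA8 were in this group although their pools overlapped over the whole series. Each set holds 2 pools per group, and the sets were drawn from these data.

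The CCT complex, the chaperonin of actin and tubulin, had 7 of 8 subunits lower, by less than the SE for 6 of the 7, and a median log2 fold change of -0.07. CCT3 was at 247, 248, 279 and 286 CPM in food-restricted pools 1 to 4, against 314, 329.9, 254 and 285 CPM in well-fed pools 1 to 4 (-0.16, SE 0.11). Well-fed pools 1 and 2 were the high ones and the remaining pools overlapped. CCT7 was at 333, 338, 338 and 339 CPM in food-restricted pools 1 to 4, against 393, 397, 312 and 339.7 CPM in well-fed pools 1 to 4 (-0.10, SE 0.10). Its food-restricted pools were nearly equal and lay inside the well-fed range. CCT2 was at 107.5, 122, 151 and 131 CPM in food-restricted pools 1 to 4, against 146, 156, 121 and 124 CPM in well-fed pools 1 to 4 (-0.10, SE 0.13). TCP1, the alpha subunit, was at 324, 313, 396 and 323 CPM in food-restricted pools 1 to 4, against 365, 414, 307 and 331 CPM in well-fed pools 1 to 4 (-0.06, SE 0.12).

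Food-restricted pool 3 and well-fed pool 2 carried the highest value of their group in TCP1, CCT2, CCT4, CCT6A and CCT8. CCT4 (-0.03, SE 0.14), CCT6A (-0.07, SE 0.15) and CCT8 (-0.05, SE 0.14) overlapped widely. CCT5 was the exception among the 8, with means of 182 CPM in food-restricted pools, against 179 CPM in well-fed pools (0.02, SE 0.10) and its lowest value in well-fed pool 1. Summed over the 8 subunits, the complex was at 1768 to 2112 CPM in food-restricted pools, against 1754 to 2243 CPM in well-fed pools. TCP1, CCT4 and CCT7 overlap ACAT2, COMMD1 and PRADC1 in the RefSeq table, with the same uncertainty as for DNAJA1. The same holds for HSPA8 with CLMP, AHSA1 with ISM2 and HSPD1 with MOB4. Without food-restricted pool 3 the median of the subunits was -0.15, and without well-fed pool 2 it was 0.01.

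The 2 tested mitochondrial chaperones were lower by less than their SE. HSPD1 (HSP60), the chaperonin of the matrix, was at 174.5, 176, 243.5 and 194 CPM in food-restricted pools 1 to 4, against 229.6, 253, 185 and 188 CPM in well-fed pools 1 to 4 (-0.12, SE 0.14). HSPA9 (mortalin), the HSP70 of the matrix and of protein import, was at 236, 214, 303 and 250.2 CPM in food-restricted pools 1 to 4, against 286, 292, 228 and 243.5 CPM in well-fed pools 1 to 4 (-0.06, SE 0.13). Food-restricted pool 3 was the highest of its group in each gene, and the groups overlapped. The co-chaperonin HSPE1, which caps HSPD1, was not analysed.

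**Figure D5:**
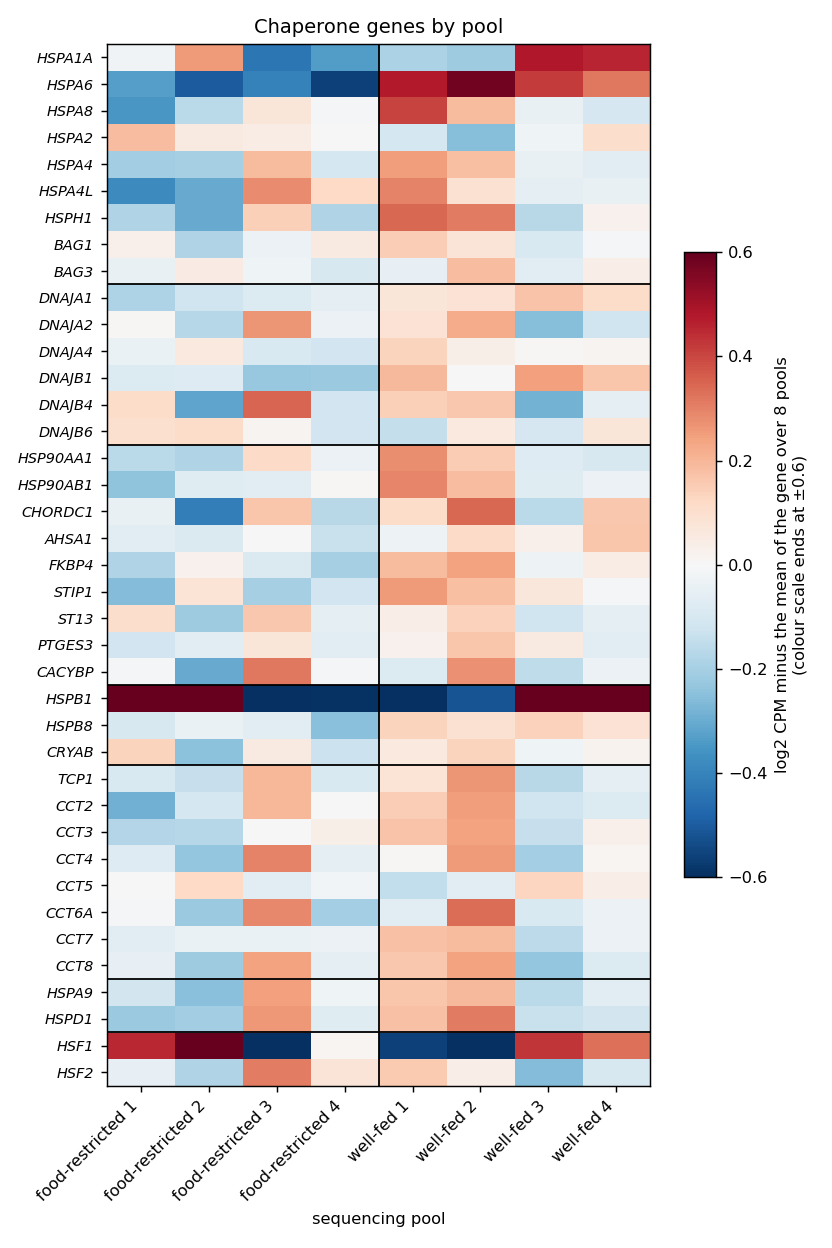
Deviation of log2 CPM from the mean over 8 pools of each gene (colour, ending at ±0.6) for 39 chaperone genes (rows, by role) in the 4 food-restricted pools (left) and 4 well-fed pools (right). HSPA6, DNAJB1, DNAJA1 and HSPB8 change colour at the line between the groups, while HSPB1 and HSF1 follow food-restricted 1 and 2 and well-fed 3 and 4, and most CCT subunits are highest in food-restricted pool 3 and well-fed pool 2.

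Compared by role, the median log2 fold change was -0.16 in the HSP70 system (8 of 9 lower), -0.14 in HSP90 and its co-chaperones (7 of 9), -0.09 in the small heat shock proteins (3 of 3), -0.07 in the CCT complex (7 of 8) and -0.04 in the HSP40 proteins (3 of 6). It was -0.09 for the mitochondrial pair (2 of 2 lower) and 0.16 for the heat shock factors (0 of 2). Without a single pool these medians kept their sign, except those of the CCT complex, as above, and of the HSP40 proteins, which came to 0.00 without food-restricted pool 4. These medians rest on few genes, and single pools moved them by over 1.5 times in every role but HSP90. The mitochondrial median was -0.20 without food-restricted pool 3, -0.04 and -0.02 without food-restricted pools 1 and 2, and -0.05 and -0.02 without well-fed pools 1 and 2. That of the HSP70 system was -0.25 without food-restricted pool 3 and -0.10 without either food-restricted pool 2 or the first well-fed pool. That of the small heat shock proteins was -0.22 without food-restricted pool 1, -0.23 without food-restricted pool 2, -0.22 without well-fed pool 1, -0.23 without well-fed pool 2 and -0.05 without food-restricted pool 4. The HSP40 median was -0.09 without food-restricted pool 3, -0.01 without well-fed pool 2, -0.07 without well-fed pool 3 and -0.06 without well-fed pool 4. The CCT median was also -0.03, -0.01 and -0.02 without food-restricted pools 1, 2 and 4, and -0.11 without well-fed pool 3. That of the heat shock factors was 0.09 without well-fed pool 2. The differences between roles were not tested. Counted by pool, food-restricted pools 1 to 4 were the highest of the 8 in 1, 2, 8 and 0 members, against 9, 12, 5 and 2 members for well-fed pools 1 to 4. Food-restricted pools 1 to 4 were the lowest in 10, 11, 4 and 6 members, against 2, 1, 5 and 0 members for well-fed pools 1 to 4. Food-restricted pool 3 was thus the highest nearly as often as well-fed pool 1.

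A wider list of 70 other genes, of chaperones, their partners and mitochondrial protein quality control, was not mostly lower. In it SUGT1 had no row and CRYAA too few reads. Of the 68 tested, 24 were below 0 and 44 above it, with a median log2 fold change of 0.03, and none passed (edgeR). Not all 70 encode chaperones. The list was made with earlier results known. Of 23 further HSP70 partners and HSP40 proteins, 11 were lower. Among all 68 tested, 1 gene, from these 23, was lower with groups without overlap, against 1.10% of all tested genes. That gene was DNAJB5, a further HSP40, at 71.6 to 78.8 CPM in food-restricted pools, against 83.4 to 103 CPM in well-fed pools (-0.31, SE 0.10). Of 12 further HSP90 co-chaperones 5 were lower, with TOMM34 the smallest in p (-0.23, SE 0.15). Prefoldin and the tubulin cofactors, which hand clients to or take them from CCT, had 2 of 13 lower and a median of 0.08, with PFDN1 at 0.20 (SE 0.15) the smallest in p. Further mitochondrial quality control genes had 4 of 13 lower and a median of 0.06, with HSCB at 0.37 (SE 0.23). Further small heat shock proteins and heat shock factors had 2 of 7 lower.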

How the data were processed

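Per the labels, RNA of 15 ewes a pool was extracted with TriReagent and made into stranded mRNA libraries. The authors deposited raw read counts per gene in 1 table, and per the submitters' processing notes the tools were featureCounts 2.0.0, TopHat2 2.1.1, SAMtools 1.9, Bowtie2 2.3.5.1, bcl2fastq 2.20 and FastQC, whose roles are not stated. The genome build, the strand setting and the handling of shared reads are unknown from the sources used here, so overlapping or closely similar genes are uncertain. By RefSeq's genes for the assembly ARS-UI_Ramb_v3.0, used for names and neighbours only, 39 of 39 members matched by gene ID and 18 overlap another gene.

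The main test used edgeR 4.0.16 under R 4.3.3. Genes passed filterByExpr (minimum count 10, minimum total 15), were scaled by TMM and were compared by the quasi-likelihood F test over all 18193 genes, food-restricted against well-fed pools without covariate, with Benjamini-Hochberg adjustment and a threshold of 0.05. Dividing the size of the log2 fold change by the root of F gave its SE. Single genes had an exact permutation test on log2 CPM (prior count 2). Within-set differences are of mean log2 CPM. The scripts were checked on simulated counts. Alternatives were other scalings and filters, a block for the replicate number or for the sides of the main component, 1 surrogate variable (sva 3.50.0), DESeq2 1.42.0, limma 3.58.1 voom and each pool left out. Leaving out the 4 pools of either side was chosen after seeing the data.

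Members, role groups and lists were chosen with earlier results of these data known. Every pool is given for 7 members named whatever their result, for up to 4 of the smallest p per role and for members without overlap, and the rest are summarised. No pools of a group were the same library (chi-square per degree of freedom 25.1 to 170), and the labels call them replicates. Whether they came from separate ewes is not stated in full. The p-values therefore set the group difference only against the spread between these pools, and not against that between ewes.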

Additional observations from a re-analysis of the deposited data

Results flagged for a closer look

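In 3 of 78 groups of 4 pools, 1 pool lay far from the other 3, where chance flags about 1 in 20 groups. All 3 were subunits of the CCT complex. TCP1 was at 396 CPM in food-restricted pool 3 and between 313 and 324 CPM in the other food-restricted pools. CCT6A was at 179 CPM in well-fed pool 2 and between 133 and 138 CPM in the other well-fed pools. CCT7 was at 333 CPM in food-restricted pool 1, just under the 338 to 339 CPM of the other food-restricted pools, so that the gap is small in size.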

How the results depend on the processing

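No member was called with other scalings or filters, the replicate block, limma voom, any pool left out or either set of 4 pools left out, and 1 member, HSPA6, was called with DESeq2, a block for the sides of the main component or 1 surrogate variable. Over all genes, 1 (AGRP) was called in edgeR, against 4 with DESeq2, 6 with the side as a block, 8 with 1 surrogate variable, and 0 with any pool left out. It was 6 without food-restricted pools 1 and 2 and well-fed pools 3 and 4, and 0 without the remaining 4 pools, a pair of settings chosen after seeing the data. Deviations of same-numbered pools correlated at -0.214, -0.42, -0.351 and -0.207. Each such pair lay on opposite sides of the main component, which alone can make these values negative. They therefore cannot show whether replicate numbers pair the pools. With the replicate block 0 genes were called, which does not show it either. The members lower numbered 26 to 34 with 1 pool left out, and their median was -0.17 to -0.05. The median of the small heat shock proteins was -0.22 with 1 surrogate variable and -0.23 to -0.045 with a pool left out. That of the HSP40 proteins was -0.10 without food-restricted 1 and 2 and well-fed 3 and 4, 0.035 without the other 4 pools, and -0.09 to 0.00 with a pool left out. The sign of some log2 fold changes near 0 turned, and the cause was not tested. ST13 came to -0.0056 with upper-quartile scaling, -0.0024 without a low-count filter, -0.00071 with the replicate block and -0.00027 with limma voom. CACYBP came to -0.00064, -0.00017 and -0.00056 under the same settings before voom. Without food-restricted 1 and 2 and well-fed 3 and 4, DNAJA2 was at -0.048, DNAJB4 at -0.031, DNAJB6 at -0.023 and ST13 at -0.044. Without the remaining pools, BAG3 was at 0.0078, CACYBP at -0.055, CCT5 at -0.027, CCT7 at 0.038 and CCT8 at 0.023. With a pool left out, the range was -0.087 to 0.0011 for BAG1, -0.061 to 0.11 for DNAJA2, -0.10 to 0.14 for DNAJB4, -0.052 to 0.088 for ST13, -0.11 to 0.12 for CACYBP, -0.30 to 0.25 for HSPB1, -0.15 to 0.019 for TCP1, -0.15 to 0.054 for CCT4, -0.025 to 0.083 for CCT5, -0.19 to 0.041 for CCT6A, -0.14 to 0.035 for CCT8, -0.17 to 0.022 for HSPA9 and -0.014 to 0.17 for HSF2.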
